A study of Mus musculus with 19 samples.

Results

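Cell-to-cell junctions were followed through 65 genes: 34 claudins, 6 further transmembrane genes of the tight junction, 4 genes of its cytoplasmic plaque, Epcam, 5 genes of the adherens junction, 9 desmosomal cadherins and 6 genes of the desmosomal plaque. They are every row of the authors' normalized table of 26221 genes whose symbol is a claudin (Cldn), zonula occludens protein (Tjp), desmoglein (Dsg), desmocollin (Dsc) or plakophilin (Pkp), together with Epcam, Ocln, Marveld2, Marveld3, F11r, Jam2, Jam3, Cdh1, Cdh2, Ctnna1, Ctnnb1, Ctnnd1, Jup, Dsp and Cgn. RNA had been sequenced from 3 sorted populations of the nasal epithelium of untreated mice with a B6.Cg background, carrying the transgene Tg(RP23-268L19-EGFP)2Mik. This is a bacterial artificial chromosome in which regulatory sequence of Chat, the gene of the acetylcholine-synthesising enzyme, drives enhanced green fluorescent protein (eGFP), and all 3 groups carry it. After dispase and papain digestion, CD45-negative, EpCAM-positive, eGFP-positive cells, which the labels call brush cells, were divided by forward and side scatter into FSClow (9 libraries) and FSChi (5 libraries). CD45-negative, EpCAM-positive, eGFP-negative cells formed the third group, EpCAM (5 libraries), from which dead cells had been excluded with propidium iodide. No age is given, nor whether the libraries of a group stem from different animals, and the spread that p-values rest on here may therefore be a technical one.

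Epithelial cells are held together by 3 kinds of junction. In the tight junction, claudins and the occludin family seal the space between cells and are anchored by zonula occludens proteins. In the adherens junction, cadherins bind their like on the next cell and hold the actin cytoskeleton through catenins, and in the desmosome, desmogleins and desmocollins are tied to keratin filaments through plakoglobin, plakophilins and desmoplakin. EpCAM, a membrane glycoprotein of simple epithelia, binds claudin-7 and protects it from degradation. Brush or tuft cells are rare chemosensory epithelial cells that sit among these junctions, next to ciliated, secretory and basal cells and, in the olfactory epithelium, beside sensory neurons and sustentacular cells.

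Total counts per library ran from 4137303 to 6487644 in EpCAM, from 1348428 to 7477695 in FSChi and from 2151281 to 5439263 in FSClow. Levels are given as CPM, counts scaled to library size with TMM factors. Summed CPM of 12 tuft cell markers ran from 12.2 to 32.5 in EpCAM, from 8076 to 14014 in FSChi and from 8652 to 12174 in FSClow, and Chat itself from 0.151 to 3.09, from 183 to 433 and from 448 to 587. Markers of some other cells also followed the gates. Olfactory sensory neuron markers summed to 3696 to 6387 CPM in EpCAM, 238 to 4011 in FSChi and 65.2 to 282 in FSClow. Basal cell markers summed to 1825 to 5039, 116 to 1783 and 36.4 to 131 CPM. For secretory and gland cell markers the sums were 8272 to 22093, 443 to 13549 and 25.2 to 321 CPM. Gng13, 1 of the neuron markers, was higher in FSChi (139 to 460 CPM) than in EpCAM (32.9 to 80). In such bulk samples, fewer cells of a type and less RNA per cell cannot be told apart. Of the 19 single-library files, 14 correlated best with the column of the count table that bears their name, while those of FSChi 3, 4 and 5 and EpCAM 1 and 2 did not. The best matches of FSChi 4 and 5 and EpCAM 1 and 2 lay within their own group, with correlations from 0.9608 to 0.9659. The file of FSChi 3 was nearly empty, and its best correlation of 0.2148 cannot show which group it belongs to. The count of junction genes called in each comparison is therefore also given without those 5 libraries, called the doubtful libraries here. That leaves FSChi 1 and 2, EpCAM 3, 4 and 5 and all FSClow libraries. Whether a call ended there through the smaller number of libraries was not tested.

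The RefSeq sequence of the 250 bases before a start site is printed here for Epcam, for Cldn7 and Cldn3, which with Epcam were higher in both eGFP-positive gates, and for Cldn4, which fell in FSClow. Capitals mark matches, on either strand, to the E-box CAGGTG, which factors of the Snail and Zeb families bind, or to the ETS motif AGGAAGT. The windows, on GRCm38.p6 (mm10), are chr17:87635729-87635978 on the plus strand for Epcam, chr11:69964529-69964778 on the plus strand for Cldn7, chr5:134985964-134986213 on the plus strand for Cldn3 and chr5:134946935-134947184 on the minus strand for Cldn4.
Epcam: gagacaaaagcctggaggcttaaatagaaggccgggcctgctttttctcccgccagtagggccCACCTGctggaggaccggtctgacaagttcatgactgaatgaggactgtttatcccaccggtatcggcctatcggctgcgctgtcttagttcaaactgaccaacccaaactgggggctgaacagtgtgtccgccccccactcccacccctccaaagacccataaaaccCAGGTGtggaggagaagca
Cldn7: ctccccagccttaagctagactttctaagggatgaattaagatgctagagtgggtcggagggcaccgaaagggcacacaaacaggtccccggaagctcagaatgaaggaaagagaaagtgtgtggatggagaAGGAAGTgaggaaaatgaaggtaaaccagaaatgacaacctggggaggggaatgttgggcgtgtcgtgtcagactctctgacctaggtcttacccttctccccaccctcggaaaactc
Cldn3: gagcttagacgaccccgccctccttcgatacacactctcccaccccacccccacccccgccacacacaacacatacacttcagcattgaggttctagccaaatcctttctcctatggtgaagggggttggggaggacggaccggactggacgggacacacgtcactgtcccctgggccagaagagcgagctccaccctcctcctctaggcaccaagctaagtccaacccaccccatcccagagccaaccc
Cldn4: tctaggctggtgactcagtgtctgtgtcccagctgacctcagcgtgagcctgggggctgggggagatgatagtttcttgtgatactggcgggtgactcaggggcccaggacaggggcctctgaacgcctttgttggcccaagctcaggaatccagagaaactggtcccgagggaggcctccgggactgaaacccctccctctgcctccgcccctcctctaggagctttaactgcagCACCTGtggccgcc
The 250 bases hold 2 E-boxes for Epcam, 1 ETS match for Cldn7, 1 E-box for Cldn4 and neither motif for Cldn3. RefSeq start-site windows of 300 bases were at hand for 38 of the 65 genes, in 52 windows, and the 250 bases before each start site were searched. CAGGTG, counted on both strands, occurred in 11 of those 52 windows against 17.2% of all 32851 windows, and AGGAAGT in 2 against 7.69%. The GC box GGGCGG occurred in 26 of the 52 against 32.7% of all windows, TATAAA in 6 against 12.4%, and the octamer ATGCAAAT and the grainyhead palindrome AACCGGTT in 0 against 1.6% and 0.116%. For the 6 genes higher in both gates that had a window, a gene was counted where any of its windows held the motif. GGGCGG was present for all 6 (Cgn, Cldn3, Cldn6, Cldn7, Epcam, F11r) and CAGGTG for 4 (Cldn6, Cldn7, Epcam, F11r). The Cldn7 window printed above holds neither. These are counts of genes, while the percentages above are shares of windows. These matches describe the letters of the windows and were not tied to any measured binding.

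FSClow and EpCAM cells differed across all 3 junction types, with genes moving both ways. A filter on low counts left 38 of the 65 genes for testing, and 12 were higher and 12 lower in FSClow (edgeR's quasi-likelihood test, Benjamini-Hochberg adjusted p under 0.05 over 13340 genes). Over all genes tested, 22.0% were higher and 23.1% lower, 45.1% in either direction, against 63.2% of these 38. The groups did not overlap in any library for 8 of the 38 with higher and 4 with lower levels in FSClow, where 10.7% and 15.6% of all genes did so. The median log2 change of the 38 was 0.04 and that of all genes 0.05. Without the 5 libraries whose files did not match, 11 were higher and 7 lower, beside 2011 and 3091 of all 14193 genes tested then.

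FSChi cells differed from EpCAM cells in fewer of these genes, 7 higher and 5 lower of the 38. Over all genes, 13.5% were higher and 12.2% lower, 25.6% in either direction, against 31.6% of the 38. Non-overlap of every library held for 5 genes with higher and 3 with lower levels, against 10.2% and 11.3% of all genes. The median log2 change was -0.45, beside -0.02 for all genes. Leaving out the 5 doubtful libraries gave 5 higher and 3 lower, beside 1048 and 790 of all 14193 genes tested then. Leaving out EpCAM 1 alone also gave 3 lower, beside 1382 of all 13524 genes. Both comparisons use the same EpCAM libraries, so their changes are not independent.

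**Figure D1:**
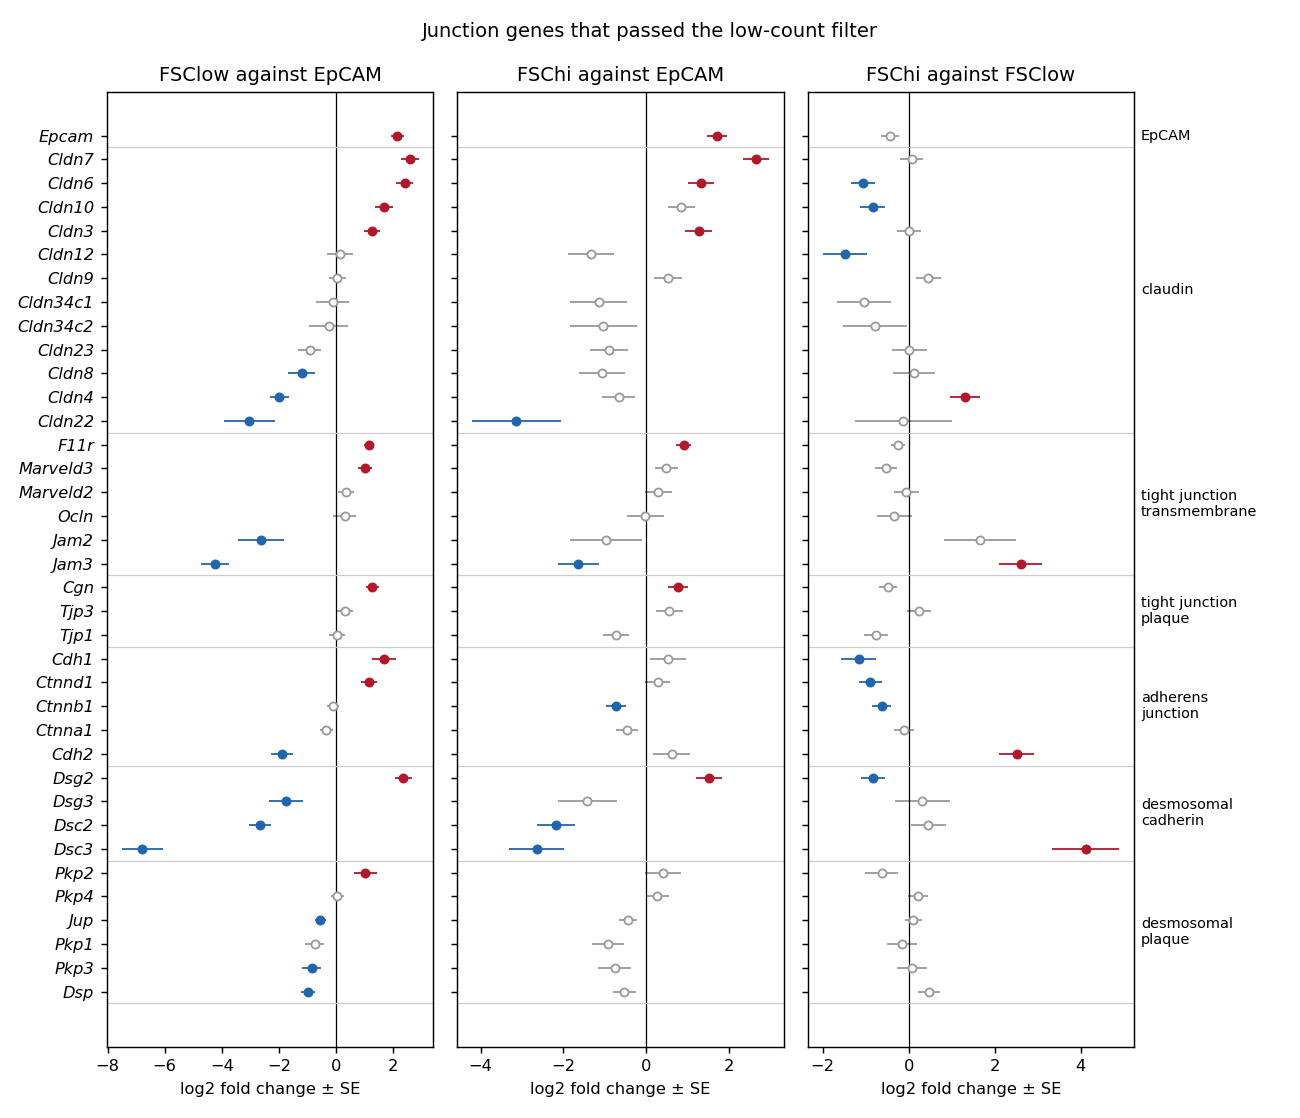
The log2 fold change with its standard error is plotted on the horizontal axis for the junction genes tested and reported, ordered by role, in 3 panels for FSClow against EpCAM, FSChi against EpCAM and FSChi against FSClow. Filled red and blue points are higher and lower at an adjusted p under 0.05, and open grey points did not pass: Epcam, Cldn7, Cldn3, Cldn6, Dsg2, Cgn and F11r are red in both of the first panels.

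Epcam was higher in both eGFP-positive gates than in the eGFP-negative cells, although every group had been sorted on the EpCAM protein. Its level was 479, 573, 661, 584 and 876 CPM in EpCAM 1 to 5, 2201, 2432, 2707, 1788 and 1244 in FSChi 1 to 5, and 1850 at the lowest, 2542 at the median and 3881 at the highest in FSClow. No library of either gate reached down to the highest EpCAM library. The log2 change was 2.15 ± 0.23 (SE) in FSClow (adjusted p = 4.8e-08) and 1.71 ± 0.24 in FSChi (adjusted p = 1.2e-05), the latter ending with the expected counts of the single-library files (adjusted p = 0.0513). Between FSChi and FSClow the change was -0.44 ± 0.21 and did not pass (adjusted p = 0.13).

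Cldn7, the claudin that EpCAM binds, stood at 159, 133, 198, 130 and 173 CPM in EpCAM, at 950, 1148, 1260, 801 and 832 in FSChi, and at 358, 824 and 1503 (lowest, median and highest) in FSClow. The groups again did not overlap. The log2 change from EpCAM was 2.59 ± 0.30 in FSClow (adjusted p = 1.3e-07) and 2.65 ± 0.32 in FSChi (adjusted p = 7.9e-07), and between the gates it was 0.07 ± 0.26, with a 95% interval from -0.45 to 0.58. Per kilobase of transcript, the ratio of Epcam to Cldn7 within a library had its median at 2.72 in EpCAM, 1.36 in FSChi and 1.9 in FSClow. In FSChi it ran from 0.944 to 1.46 and in EpCAM from 1.9 to 3.19, without overlap, while FSClow (1.31 to 3.26) overlapped both.

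**Figure D2:**
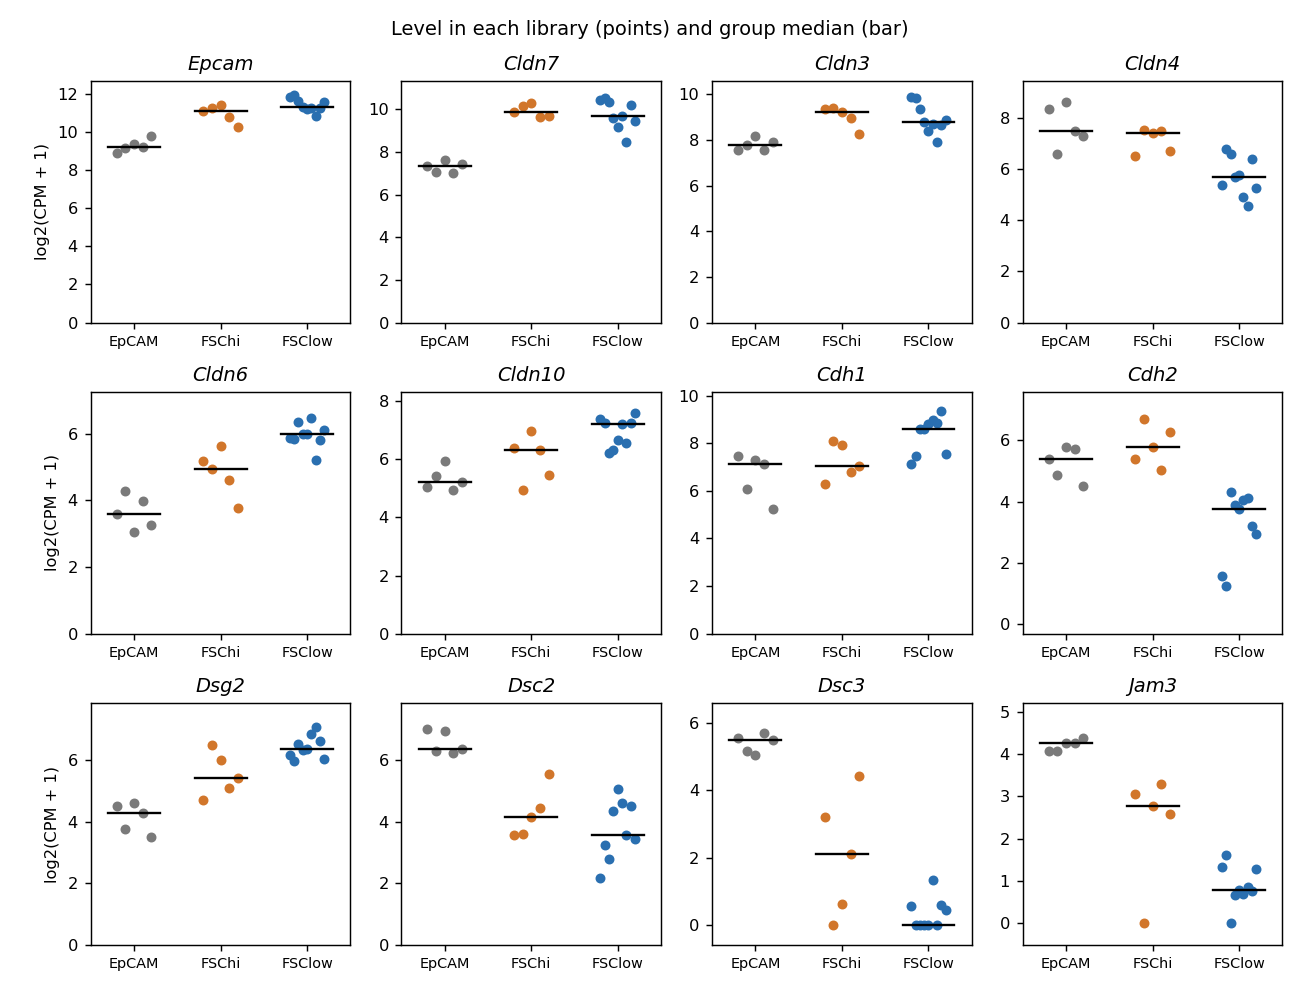
Each point is 1 library, with log2(CPM + 1) on the vertical axis and the group on the horizontal axis, and the bar is the group's median, for 12 junction genes. Epcam, Cldn7 and Dsg2 are separated from EpCAM in both gates, Cdh2 is lower in every FSClow library than in any other, and Dsc3 falls to 0 in 5 of the 9 FSClow libraries.

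Among the claudins, 4 of the 12 tested rose in FSClow (Cldn7, Cldn6, Cldn10 and Cldn3) and 3 fell (Cldn4, Cldn22 and Cldn8). That is 58.3% of the 12, where 45.1% of all genes passed. In FSChi, Cldn7, Cldn6 and Cldn3 rose against EpCAM and Cldn22 fell, 33.3% of the 12, where 25.6% of all genes passed. Cldn3, a barrier-forming claudin of many simple epithelia, ran from 186 to 289 CPM in EpCAM, from 304 to 668 in FSChi and from 240 to 936 in FSClow. FSClow and EpCAM overlapped at their edges, and FSChi lay above every EpCAM library. Its log2 change was 1.26 ± 0.29 in FSClow (adjusted p = 0.00091) and 1.27 ± 0.32 in FSChi (adjusted p = 0.0045, but 0.0509 without the 5 doubtful libraries and 0.0875 with the single-library files' expected counts).

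Cldn6, a claudin best known from embryonic epithelia, was a minor gene in all groups, with 11, 18.5, 7.3, 14.8 and 8.59 CPM in EpCAM, 35.3, 29.7, 48.5, 23.5 and 12.8 in FSChi, and 35.8, 63.1 and 88.3 (lowest, median, highest) in FSClow. FSClow was above every EpCAM library, and FSChi 5 was within the EpCAM range. Its log2 change was 2.40 ± 0.30 in FSClow (adjusted p = 4.2e-07) and 1.33 ± 0.31 in FSChi (adjusted p = 0.0029). Cldn9, its neighbour 137 bases away on chromosome 17, passed in neither comparison: the log2 change was 0.05 ± 0.30 in FSClow and 0.52 ± 0.34 in FSChi (adjusted p = 0.91 and 0.28). The ratio of Cldn6 to Cldn9 per kilobase, taken within a library, ran from 0.108 to 0.245 in EpCAM, from 0.233 to 0.518 in FSChi and from 0.57 to 1.56 in FSClow.

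Cldn4 moved opposite to Cldn3, although the pair are neighbours on chromosome 5 with no gene in the 39279 bases between them. Its level was 325, 94.6, 401, 178 and 158 CPM in EpCAM, 90.5, 185, 171, 178 and 105 in FSChi, and 22.9, 51.6 and 111 (lowest, median, highest) in FSClow. FSChi overlapped EpCAM, and FSClow overlapped both at its upper end. The log2 change from EpCAM was -1.98 ± 0.34 in FSClow (adjusted p = 4.4e-05), and -0.66 ± 0.40 in FSChi, which did not pass (adjusted p = 0.24). Within a library, the ratio of Cldn7 to Cldn4 per kilobase had medians of 1.03 in EpCAM, 10.4 in FSChi and 20.8 in FSClow, and its ranges (0.689 to 1.98, 6.33 to 14.8 and 15.1 to 47.5) did not overlap.

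Cldn10, which forms ion-selective pores, rose in FSClow from 29.9 to 60.1 CPM in the EpCAM libraries to 73, 149 and 190 (lowest, median, highest), with no overlap, a log2 change of 1.68 ± 0.30 (adjusted p = 6.7e-05). In FSChi it stood at 81.8, 29.7, 124, 78.4 and 42.9 CPM, overlapping EpCAM, with a change of 0.85 ± 0.32 that did not pass (adjusted p = 0.055). Cldn8 fell in FSClow by 1.20 ± 0.47 on the log2 scale (adjusted p = 0.042). Cldn22 was low everywhere, 0.301 to 9.23 CPM in EpCAM and 0 at the FSClow median. Its changes of -3.03 ± 0.88 in FSClow (adjusted p = 0.0067) and -3.14 ± 1.07 in FSChi (adjusted p = 0.032) both ended without the 5 doubtful libraries, and the FSChi call also ended without any 1 of EpCAM 1, 3 or 4 or FSChi 1, 2 or 3 (adjusted p from 0.053 to 0.0812). Cldn9, Cldn12, Cldn23, Cldn34c1 and Cldn34c2 passed the test in neither comparison with EpCAM. Cldn34 genes have near-identical copies, so reads may be divided among them and their values are uncertain.

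As shares of the summed claudin level per kilobase, Cldn7 made up 21.5% ± 1.81 (SD, n = 5) in EpCAM, 54.2% ± 5.74 (n = 5) in FSChi and 52.2% ± 4.8 (n = 9) in FSClow. Cldn3 made up 31.4% ± 4.47, 29.6% ± 4.47 and 30.2% ± 4.14, shares within 1 SD of each other. Cldn4 went from 21.2% ± 8.44 in EpCAM to 5.63% ± 1.53 in FSChi and 2.31% ± 0.772 in FSClow. The summed level itself was 575 ± 123 CPM per kilobase in EpCAM, 1441 ± 292 in FSChi and 1396 ± 533 in FSClow. In the eGFP-negative cells Cldn3, Cldn7 and Cldn4 led the family, and in both eGFP-positive gates Cldn7 and Cldn3 did.

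**Figure D3:**
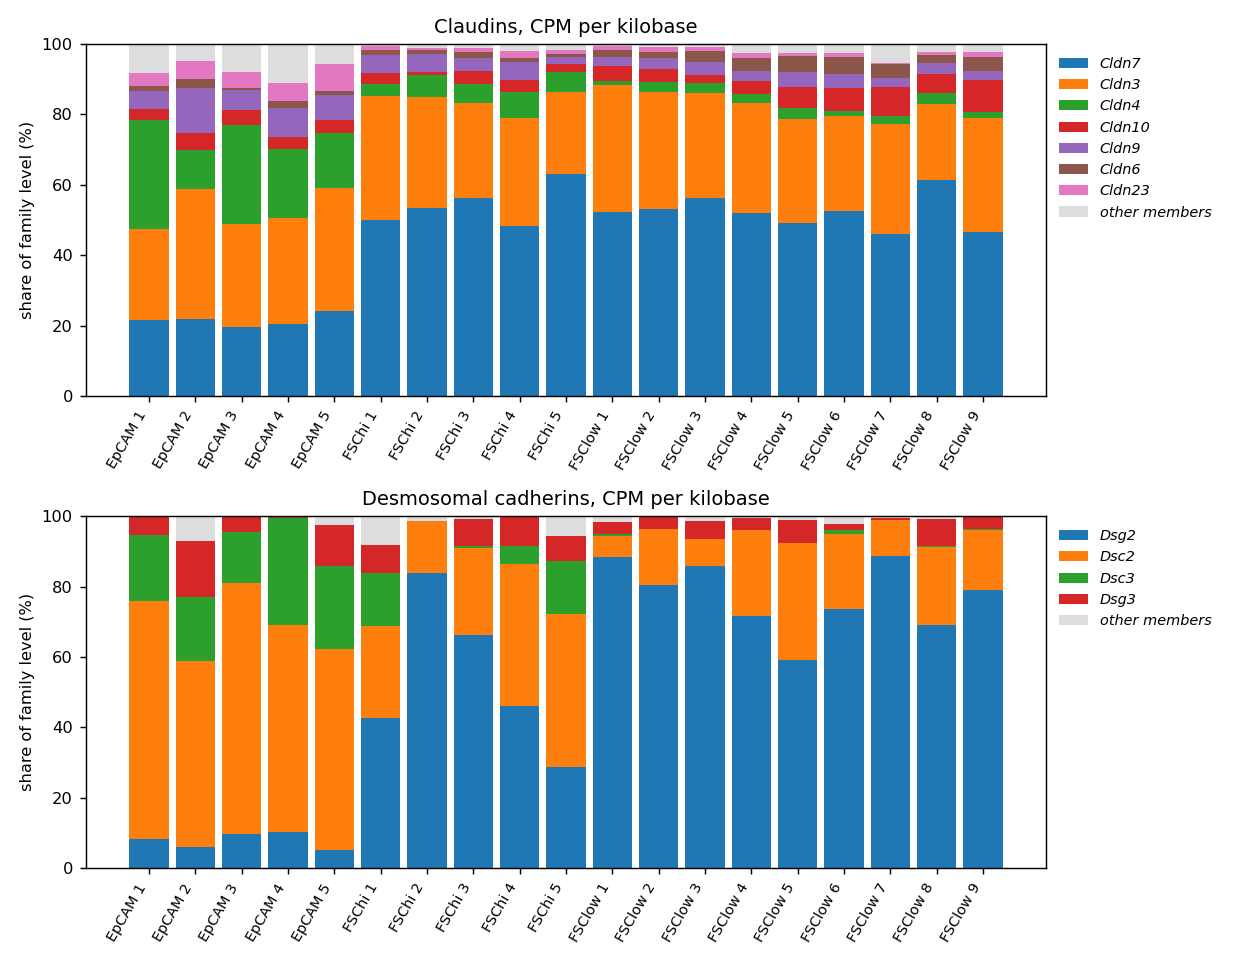
Stacked bars, 1 per library, give each gene's share in percent of its family's summed CPM per kilobase, with claudins above and desmosomal cadherins below. Cldn7 averages 21.5% in EpCAM, 54.2% in FSChi and 52.2% in FSClow, and Dsg2 averages 7.94%, 53.5% and 77.3%.

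The other 22 claudins did not pass the filter on low counts: Cldn1, Cldn2, Cldn5, Cldn11, Cldn13 to Cldn20, Cldn24 and 9 genes of the Cldn34 group (Cldn34-ps, a, b1, b2, b3, b4, c3, c4 and d). The 5 desmosomal cadherins Dsc1, Dsg1a, Dsg1b, Dsg1c and Dsg4 did not pass it either. Their highest level in any library was 5.7 CPM (Dsg1b) in EpCAM, 6.43 (Cldn34b3) in FSChi and 3.25 (Cldn34c3) in FSClow. No count was recorded in any library for Cldn13, Cldn34a and Cldn34b4. Cldn2, a cation-pore claudin, averaged 2.83 CPM in EpCAM and had no count in FSClow, and Cldn5, the claudin of endothelium, was among the untested genes.

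Of the tight junction's other transmembrane genes, F11r (JAM-A) and Marveld3 were higher in FSClow, Jam2 and Jam3 lower, and Ocln and Marveld2 did not pass. F11r, an adhesion molecule that recruits polarity proteins, stood at 75.8 to 130 CPM in EpCAM, 163 to 227 in FSChi and 172 to 299 in FSClow, and both gates lay above every EpCAM library. Its log2 change was 1.15 ± 0.17 in FSClow (adjusted p = 4.2e-06) and 0.91 ± 0.18 in FSChi (adjusted p = 0.00074, and 0.0782 with the single-library files' expected counts). Marveld3, a relative of occludin, rose by 1.01 ± 0.25 in FSClow (adjusted p = 0.0018). Ocln, occludin itself, changed by 0.31 ± 0.40 in FSClow and by -0.02 ± 0.45 in FSChi, and its FSClow libraries spread from 13.4 to 81.4 CPM.

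Jam3, an adhesion molecule found on many non-epithelial cells too, held a narrow range of 15.9 to 19.9 CPM in EpCAM. It was 7.29, 0, 5.78, 8.77 and 4.96 CPM in FSChi 1 to 5, and 0, 0.717 and 2.05 (lowest, median, highest) in FSClow. EpCAM lay above both gates in every library. Its log2 change was -4.24 ± 0.48 in FSClow (adjusted p = 9.3e-08) and -1.64 ± 0.49 in FSChi (adjusted p = 0.017, and 0.125 without the 5 doubtful libraries). Jam2 was lower in FSClow by 2.63 ± 0.81 on the log2 scale (adjusted p = 0.0097), and the change was -3.61 without FSClow 8.

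Of the 4 tight junction plaque genes, Cgn was the one that passed the test against EpCAM, in both gates. Over all genes, 45.1% passed in FSClow and 25.6% in FSChi. Cingulin, the product of Cgn, links the junction to actomyosin, and its gene stood at 35.4 to 83.9 CPM in EpCAM, 74.1 to 120 in FSChi and 99.6 to 201 in FSClow. Only FSClow was clear of the EpCAM libraries. The log2 change was 1.27 ± 0.22 in FSClow (adjusted p = 3.5e-05) and 0.77 ± 0.24 in FSChi (adjusted p = 0.018), and the latter ended without EpCAM 2, FSChi 3 or FSChi 5 (adjusted p from 0.0506 to 0.0621), without the 5 doubtful libraries (adjusted p = 0.331) and with expected counts (adjusted p = 0.135). Tjp1 (ZO-1), the main scaffold of the plaque, changed by 0.03 ± 0.27 in FSClow (adjusted p = 0.94) and by -0.73 ± 0.31 in FSChi, where the test was not passed (adjusted p = 0.089) but was without EpCAM 5 or FSChi 2 (adjusted p from 0.024 to 0.0421). Tjp3, a further scaffold, did not pass in either comparison with EpCAM.

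At the adherens junction, FSClow cells had more Cdh1 and less Cdh2 than EpCAM cells. Cdh1 (E-cadherin), the classical epithelial cadherin, was 176, 65.8, 157, 139 and 36.8 CPM in EpCAM, 76.2, 274, 240, 110 and 129 in FSChi, and 140, 385 and 645 (lowest, median, highest) in FSClow. FSClow spread widely: libraries 1, 2 and 9 had 140, 174 and 183 CPM and the other 6 had 380 or more. In log2 terms the change was 1.68 ± 0.42 in FSClow (adjusted p = 0.0021) and 0.53 ± 0.44 in FSChi (adjusted p = 0.42). Ctnnd1 (p120-catenin), which holds cadherins at the membrane, rose in FSClow by 1.16 ± 0.27 (adjusted p = 0.001).

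Cdh2 (N-cadherin), the cadherin of neurons and mesenchyme, was 40.6, 28.3, 54.5, 51.4 and 22.1 CPM in EpCAM, 41.1, 103, 54.2, 31.9 and 76.9 in FSChi, and 1.37, 12.5 and 18.9 (lowest, median, highest) in FSClow. Every FSClow library lay below every library of the other groups, which overlapped each other. The log2 change from EpCAM was -1.89 ± 0.40 in FSClow (adjusted p = 0.00044) and 0.62 ± 0.45 in FSChi (adjusted p = 0.34). Within a library, the ratio of Cdh1 to Cdh2 per kilobase ran from 1.62 to 4.22 in EpCAM, from 1.64 to 4.33 in FSChi and from 19.6 to 125 in FSClow. Ctnnb1 (beta-catenin) changed by -0.09 ± 0.21 in FSClow (adjusted p = 0.75) and by -0.73 ± 0.24 in FSChi (adjusted p = 0.028), the latter ending without EpCAM 1 or EpCAM 2 (adjusted p from 0.0718 to 0.0744). Without the 5 doubtful libraries it was -0.27 (adjusted p = 0.647). Ctnna1 (alpha-catenin) passed in none of the comparisons.

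**Figure D4:**
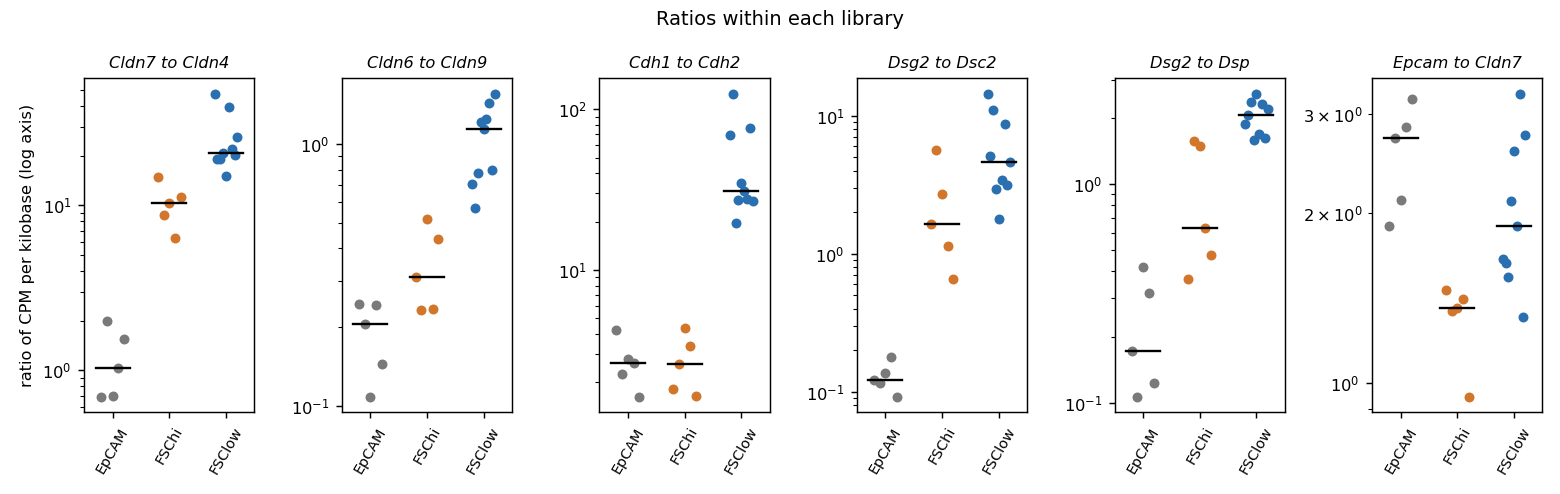
Ratios of CPM per kilobase between 2 genes of the same library are plotted on log axes, 1 point per library and a bar at the group median, for 6 pairs. Cldn7 to Cldn4 separates all 3 groups, Cdh1 to Cdh2 sets FSClow (19.6 to 125) apart from the other groups, and Dsg2 to Dsp is at least 1.59 in FSClow and at most 0.417 in EpCAM.

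The desmosomal cadherins exchanged rank between the groups. Dsg2, the desmoglein of simple epithelia, was 22.0, 12.6, 23.4, 18.5 and 10.4 CPM in EpCAM, 24.9, 90.0, 63.3, 33.4 and 42.2 in FSChi, and 61.8, 81.4 and 134 (lowest, median, highest) in FSClow. Both gates were above every EpCAM library. The log2 change was 2.35 ± 0.30 in FSClow (adjusted p = 5.6e-07) and 1.52 ± 0.31 in FSChi (adjusted p = 0.00085). Dsc2, the desmocollin of simple epithelia, went the other way, from 127, 76.8, 121, 74.2 and 80.6 CPM in EpCAM to 10.8, 11.2, 16.7, 20.7 and 45.4 in FSChi and to 3.47, 10.9 and 32.3 (lowest, median, highest) in FSClow. EpCAM was above both gates in every library, and the log2 change was -2.65 ± 0.38 in FSClow (adjusted p = 3.9e-06) and -2.19 ± 0.46 in FSChi (adjusted p = 0.0011), moving to -3.10 without the 5 doubtful libraries.

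Dsc3, a desmocollin of basal and stratified epithelium, was 46.1, 34.7, 32.2, 51.0 and 43.8 CPM in EpCAM, 8.23, 0, 0.538, 3.36 and 20.6 in FSChi 1 to 5, and 0 in 5 of 9 FSClow libraries with a highest value of 1.51. The eGFP-negative cells were above both gates throughout. In log2 terms the change was -6.78 ± 0.73 in FSClow (adjusted p = 6.2e-08) and -2.65 ± 0.67 in FSChi (adjusted p = 0.0055), moving to -7.52 without FSClow 6 and to -3.69 without FSChi 5, respectively. Dsg3, a desmoglein of stratified epithelium, was lower in FSClow by 1.75 ± 0.60 on the log2 scale (adjusted p = 0.02), a call that ended without EpCAM 2 (adjusted p = 0.108), without EpCAM 5 (adjusted p = 0.0582) or without the 5 doubtful libraries (adjusted p = 0.194). As a share of the desmosomal cadherins per kilobase, Dsg2 made up 7.94% ± 2.24 (SD, n = 5) in EpCAM, 53.5% ± 21.7 (n = 5) in FSChi and 77.3% ± 9.84 (n = 9) in FSClow, and Dsc2 61.5% ± 7.77, 29.9% ± 11.9 and 17.5% ± 8.74. The summed level of these cadherins was 38.3 ± 6.1, 16.9 ± 6.02 and 20.3 ± 5.54 CPM per kilobase.

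In the desmosomal plaque, Pkp2 rose in FSClow and Dsp, Jup and Pkp3 fell. Dsp (desmoplakin), which ties the plaque to keratin, was 174, 162, 76.4, 79.5 and 115 CPM in EpCAM, 92.2, 77.9, 57.6, 71.9 and 121 in FSChi, and 39.8, 52.9 and 92 (lowest, median, highest) in FSClow. The groups overlapped, with a log2 change of -0.99 ± 0.24 in FSClow (adjusted p = 0.0016, and 0.0652 without the 5 doubtful libraries). Jup (plakoglobin), shared by desmosome and adherens junction, fell by 0.55 ± 0.19 in FSClow (adjusted p = 0.021), a call that ended without EpCAM 5 (adjusted p = 0.133) or without the 5 doubtful libraries (adjusted p = 0.0592). Among the plakophilins, which cross-link the plaque, Pkp2 rose by 1.03 ± 0.39 in FSClow (adjusted p = 0.032), Pkp3 fell by 0.85 ± 0.34 (adjusted p = 0.047), and Pkp1 and Pkp4 did not pass. None of the 6 plaque genes passed in FSChi against EpCAM, beside 25.6% of all genes. There DESeq2 gave Jup an adjusted p of 0.0478. Per kilobase, the ratio of Dsg2 to Dsp within a library ran from 0.106 to 0.417 in EpCAM, from 0.368 to 1.57 in FSChi and from 1.59 to 2.6 in FSClow.

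The gates of eGFP-positive cells were then compared with each other, which uses no EpCAM library as a reference. FSChi was higher than FSClow in 4 of the 38 genes (Cdh2, Dsc3, Jam3 and Cldn4) and lower in 8, among them Cldn12, Cdh1, Cldn6, Ctnnd1, Cldn10, Dsg2 and Ctnnb1. Over all genes, 15.5% were higher and 9.3% lower, 24.8% in either direction, against 31.6% of the 38. The gates did not overlap for 1 gene with higher levels in FSChi, Cdh2, and for 1 with lower levels, Ctnnb1, where 3.98% and 2.55% of all genes, 6.53% together, did so. Without the 5 doubtful libraries, 2 genes were higher, Cdh2 and Dsc3, and 0 were lower with edgeR. Of all 14193 genes tested then, 1331 were higher and 423 lower. The count of 8 lower genes fell to 1 without FSChi 1 or FSChi 4, to 2 without FSChi 5 or FSClow 6, to 3 without FSClow 5, 7 or 8 and to 5 without FSClow 4. Over all genes, the 1241 lower ones also became fewer, 808, 798 and 830 without FSChi 1, 4 and 5. Without 1 of these FSClow libraries they were 878 to 1069.

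Cdh2 differed by 2.51 ± 0.40 on the log2 scale (adjusted p = 6.4e-05), and Dsc3 by 4.12 ± 0.78 (adjusted p = 0.00038), or 3.17 without FSChi 5 and 4.87 without FSClow 6. Jam3 differed by 2.60 ± 0.49 (adjusted p = 0.00033) and Cldn4 by 1.32 ± 0.35 (adjusted p = 0.007), with adjusted p of 0.0585 and 0.0881 without the 5 doubtful libraries. Among the lower genes, Cldn6 differed by -1.07 ± 0.28 (adjusted p = 0.0062) and passed with any 1 library left out but not without the 5 doubtful ones (adjusted p = 0.0941). Ctnnd1 differed by -0.89 ± 0.27 (adjusted p = 0.018) and ended without FSChi 1 or FSChi 4 or without the 5 doubtful libraries (adjusted p = 0.278). A further 5 were closer to the threshold, with adjusted p from 0.031 to 0.042, and each ended on leaving out any 1 of 5 to 12 of the 19 libraries: Cdh1 (-1.16 ± 0.41), Cldn12 (-1.48 ± 0.52), Cldn10 (-0.83 ± 0.29), Dsg2 (-0.82 ± 0.28) and Ctnnb1 (-0.63 ± 0.22). FSChi 1 and FSChi 4 were among those libraries for each of these 5. For Tjp1 (-0.76), with an adjusted p of 0.053, the difference passed without EpCAM 5, FSChi 2, FSClow 1 or FSClow 2 (adjusted p from 0.0197 to 0.0499). Dsp, Jup, F11r and Ocln did not pass.

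Levels of other cells' markers are set beside these differences. The 8 basal markers summed to 1783, 162, 116, 807 and 976 CPM in FSChi 1 to 5, where Dsc3 stood at 8.23, 0, 0.538, 3.36 and 20.6 CPM. Of single markers, Krt5 and Trp63, the keratin and transcription factor of basal cells, were highest in FSChi 5 and FSChi 1 (185 and 150 CPM of Krt5, 15.9 and 21.9 CPM of Trp63). Ngfr (29.7 CPM) and Itga6 (33.7 CPM) were highest in FSChi 2, and Icam1 (43.7 CPM) in FSChi 3. All 8 were detected in both gates, and the part of basal cells in the Dsc3 difference was not tested. Jam3 had no count in FSChi 2, the FSChi library with the fewest olfactory sensory neuron markers (238 CPM, and 1.61 CPM of Omp, the defining marker), and 4.96 to 8.77 CPM in the other 4, where those markers summed to 1576 to 4011 CPM. Gng13, 1 of those markers, gave 218 of the 238 CPM in FSChi 2, and it was higher in FSChi than in EpCAM. FSChi 2 also had the fewest secretory (443 CPM) and stromal markers (1.61 CPM) of the FSChi libraries and the lowest depth (1348428 counts). The part of neurons, of other cells or of depth in the Jam3 difference was not tested.

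Cdh2 and Cldn4 were highest within FSChi, at 103 and 185 CPM, in FSChi 2, the shallowest library (1348428 counts), whose marker sums were 238 CPM for neurons, 443 for secretory and 162 for basal cells. For Cdh2, the 5 FSChi libraries were above all 9 FSClow libraries, and Sox10, a defining gene of olfactory ensheathing glia, had no count in FSChi 1, 2 and 5, where Cdh2 stood at 41.1, 103 and 76.9 CPM. Stromal markers summed to 1.61 to 160 CPM in FSChi and 0.839 to 13.9 in FSClow, with all 6 detected in both, and their part in the Cdh2 difference was not tested. The part of other cells or of depth in the Cldn4 difference was not tested either.

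**Figure D5:**
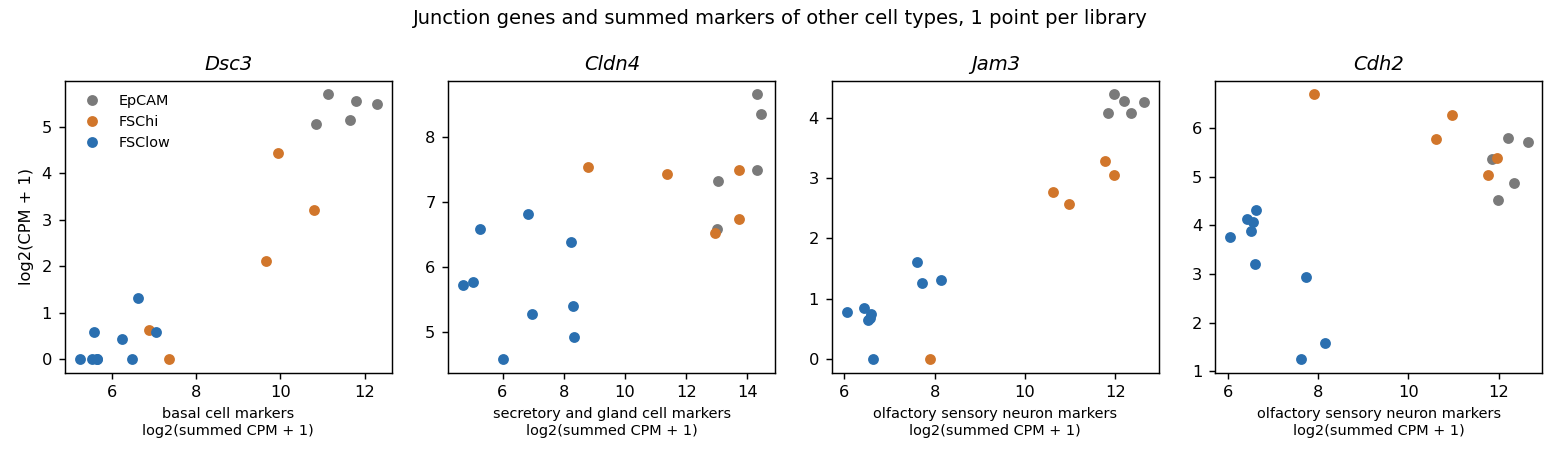
Each point is 1 library, with log2(CPM + 1) of a junction gene on the vertical axis and log2(summed CPM + 1) of another cell type's markers on the horizontal axis, coloured by group. FSChi 2 lies at the left of the FSChi points in the panels of Cldn4, Jam3 and Cdh2, at 185, 0 and 103 CPM, and the Dsc3 panel shows FSChi libraries between 0 and 20.6 CPM.

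Lists of genes that work beside these junctions are read against all genes tested, of which 45.1% passed in FSClow against EpCAM, 25.6% in FSChi against EpCAM and 24.8% between the gates. Of 19 polarity genes, 7 were higher and 2 lower in FSClow than in EpCAM, 9 in all beside the 45.1% of all genes, and 3 and 1 in FSChi, 4 in all beside 25.6%. Prkcz (atypical protein kinase C zeta), which sets the apical domain, rose by 1.97 ± 0.17 in FSClow (adjusted p = 2.2e-09) and 1.50 ± 0.18 in FSChi (adjusted p = 1.2e-06). The median log2 change of the list was -0.04 in FSClow and -0.28 in FSChi, beside 0.05 and -0.02 for all genes.

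Of 21 further plaque and tricellular genes tested, 5 rose and 8 fell in FSClow (45.1% of all genes passed), and 4 rose and 7 fell in FSChi (25.6% of all genes), with medians of 0.15 and -0.47. Afdn (afadin), which joins nectins to actin, rose by 1.87 ± 0.23 in FSClow (adjusted p = 3.1e-07). Perp, a tetraspan protein of desmosomes, went from 602 ± 322 CPM (SD, n = 5) in EpCAM to 62.7 ± 17.1 (n = 9) in FSClow, a log2 change of -3.26 ± 0.26 (adjusted p = 4.2e-10). Ppl (periplakin), a plakin of keratinised epithelia, fell by 2.52 ± 0.34 in FSClow (adjusted p = 1.5e-06), and Amotl1, a motin of tight junctions, fell by 7.22 ± 0.58 (adjusted p = 4.7e-10), a change that was -8.35 without FSClow 6.

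Among 14 nectins and other cadherins tested, 4 rose and 6 fell in FSClow (45.1% of all genes passed) and 3 rose and 2 fell in FSChi (25.6% of all genes), with medians of -0.36 and -0.08. Nectin2, an adherens junction nectin, rose by 1.56 ± 0.24 in FSClow (adjusted p = 7.2e-06). Cdh13 (T-cadherin), which lacks a cytoplasmic tail, set FSChi apart: its level was 180 ± 56.7 CPM (SD, n = 5) there, 10.5 ± 4.38 (n = 5) in EpCAM and 6.43 ± 4.47 (n = 9) in FSClow. The log2 difference of FSChi was 4.09 ± 0.52 from EpCAM (adjusted p = 2.8e-06) and 4.78 ± 0.43 from FSClow (adjusted p = 4.9e-08). Between the gates, 5 genes of this list were higher and 4 lower in FSChi, where 15.5% and 9.3% of all genes were.

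The 4 gap junction genes that passed the filter, of 15 listed, were all lower in FSClow than in EpCAM, with a median log2 change of -6.02, where 23.1% of all genes were lower. Gja1 (connexin 43) went from 34.3 ± 15.7 CPM (SD, n = 5) to 0.29 ± 0.357 (n = 9). In FSChi, 3 of the 4 were lower than in EpCAM (12.2% of all genes), and all 4 were higher than in FSClow (15.5% of all genes). In FSChi, Gja1 stood at 6.56 ± 10.3 CPM (n = 5). The median sums of basal, secretory, neuron, stromal, leukocyte and endothelial markers followed the order of Gja1, with EpCAM above FSChi and FSChi above FSClow. Those of sustentacular, ciliated, ionocyte and glial markers did not. In FSClow, Hepacam2 alone gave most of the sustentacular sum and Tubb4b most of the ciliated sum. The part of other cells in the connexin differences was not tested.

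Spint2, an inhibitor of the membrane proteases that cleave EpCAM, rose by 1.16 ± 0.19 in FSClow (adjusted p = 2.5e-05) and by 1.11 ± 0.21 in FSChi (adjusted p = 0.00038, but 0.128 with the single-library files' expected counts). Of the 9 genes of the list built around EpCAM cleavage, 4 rose and 2 fell in FSClow (45.1% of all genes passed) and 3 rose and 2 fell in FSChi (25.6% of all genes), with medians of 0.34 and -0.03.

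Of 13 transcriptional regulators of epithelial junctions tested, 4 rose and 4 fell in FSClow (45.1% of all genes passed), and 3 rose and 1 fell in FSChi (25.6% of all genes), with medians of -0.24 and -0.31. The ETS factors Ehf and Elf3 rose in both gates. Ehf was 128 ± 53.1 CPM in EpCAM, 390 ± 103 in FSChi and 522 ± 179 in FSClow, with log2 changes of 1.61 ± 0.30 (adjusted p = 0.00031) and 2.03 ± 0.28 (adjusted p = 2.1e-06). Elf3 was 283 ± 101, 1100 ± 470 and 1074 ± 327 CPM, with changes of 1.96 ± 0.32 (adjusted p = 6e-05) and 1.92 ± 0.29 (adjusted p = 7.9e-06). Snai2, a repressor of Cdh1, was 5.86 ± 3.08 CPM in EpCAM and 0.165 ± 0.496 in FSClow, a log2 change of -5.34 ± 0.99 (adjusted p = 9.3e-05), or -7.61 without FSClow 1.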

How the data were processed

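RNA of 19 libraries was sequenced. The submitters' processing notes name mm10 as the build and RSEM 1.2.21, STAR 2.4.2a, DESeq2, featureCounts and Picard 1.1073 as tools, without their roles. Raw counts of 27179 genes were deposited by the authors in 1 table, and in another normalized signal for 26221 genes, in which every value was a whole number of reads (tolerance 0.01) once divided by a factor per library. The authors also deposited, per library, RSEM expected counts, TPM and gene lengths in bases. Gene names were matched through RefSeq (25275 genes) or through identical counts in both tables (582), and 1322 genes stayed unnamed.

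The counts were fitted over all 19 libraries with edgeR 4.0.16 in R 4.3.3 (TMM scaling, edgeR's filter by group, robust quasi-likelihood test), with group as the only term and adjusted p-values over the 13340 genes left. Levels are CPM with TMM factors, and per-length levels divide them by the mean deposited gene length. DESeq2 1.42.0 on the counts, RSEM expected counts rounded to whole numbers, TPM, other scalings and filters, and each library left out were alternatives, and so were 2 chosen after seeing the files: the libraries whose files matched, and the reads recovered from the normalized signal. That last test gave 2575 higher and 3281 lower genes in FSClow against EpCAM, 1621 and 1750 in FSChi against EpCAM and 2132 and 1133 in FSChi against FSClow, of 13180. The fit was tested on simulated data.

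The members and gene lists were chosen with earlier results of these data known. Genes named throughout are Epcam, Cldn7, Ocln, Tjp1, F11r, Cdh1, Cdh2, Ctnnb1, Jup and Dsp, then up to 8 rises and 8 falls per comparison among called genes of mean log2 CPM at least 1, and up to 4 genes of each other list with the smallest p. Other genes, among them Cldn9, Marveld3 and Pkp2, were named to account for the members. Some genes are counted but not reported here by name. No source says that strand was used in counting, and reads of genes that overlap another (Cldn3 with Wbscr25, Tjp3 with Apba3, Ctnna1 with Lrrtm2) cannot be told apart. Sustentacular cell markers summed to 480 to 1172 CPM in EpCAM, 787 to 1264 in FSChi and 963 to 1260 in FSClow, ciliated cell markers to 941 to 1384, 856 to 1902 and 620 to 2998, ionocyte markers to 165 to 365, 13.7 to 117 and 14.7 to 28.8, leukocyte markers to 419 to 3341, 8.15 to 597 and 6.88 to 61.7, stromal markers in EpCAM to 89.7 to 175, endothelial markers to 1.66 to 5.99, 0.56 to 4.96 and 0 to 3.59, and glial markers, which include Cdh2, to 24.9 to 66.8, 37 to 103 and 10.6 to 29.8. Single genes carried some of these sums. In FSClow, Hepacam2 alone gave 672 to 1105 CPM of the sustentacular sum and Tubb4b 589 to 2926 CPM of the ciliated sum. The leukocyte sum in EpCAM was mostly Lyz2 (416 to 3339 CPM), and Ptprc, Cd3e and Adgre1 had no count there. Ptprc, the gene of CD45, was 2.61 to 18 CPM in FSChi and 4.78 to 32.4 in FSClow.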

Additional observations from a re-analysis of the deposited data

Results flagged for a closer look

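In 5 cases 1 library of a group stood apart from the others by the gap to its nearest neighbour, of 75 groups of libraries looked at, where chance flags about 1 in 20. Cldn22 was 4.46 CPM in FSClow 1 and 0 to 0.704 in the other FSClow libraries. Dsc2 was 45.4 CPM in FSChi 5 and 10.8 to 20.7 in the other FSChi libraries, and FSChi 5 is also the library with the most Dsc3 and Krt5 of its group. Dsc3 was 1.51 CPM in FSClow 6 and 0 to 0.514 in the others. Jam2 was 9.15 CPM in FSChi 4 and 0 to 2.28 in the others of its group, and 3.25 CPM in FSClow 8 and 0 to 0.907 in the others of its group.

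For 11 genes given here, the change from EpCAM differed between the gates by edgeR's test of FSChi against FSClow, in which the shared EpCAM libraries cancel. It is the comparison of the gates given above, which 31.6% of the 38 junction genes passed, against 24.8% of all genes. The difference in log2 change, FSChi minus FSClow, was positive for Dsc3 (4.12), Jam3 (2.60), Cdh2 (2.51) and Cldn4 (1.32). It was negative for Cldn12 (-1.48), Cdh1 (-1.16), Cldn6 (-1.07), Ctnnd1 (-0.89), Cldn10 (-0.83), Dsg2 (-0.82) and Ctnnb1 (-0.63).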

How the results depend on the processing

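Of 126 results on single genes, 75 kept their side of the threshold under every alternative, and 3402 of 3637 single values did so. For results that had not passed, a sign change by less than 1 SE counted as kept and a larger one did not. Family shares and counts of genes are not part of this tally. In 6 results the sign changed under some alternative. The change of Tmprss2 between the gates had passed the test, and its log2 value of 2.43 became -1.13 without the 5 libraries whose files did not match. The other 5 had not passed: Tjp1 (0.03, to -0.16) and Ctnnb1 (-0.09, to 0.21) in FSClow, Ocln (-0.02, to 0.13) in FSChi, and Cldn7 (0.07, to -0.12) and Jup (0.11, to -0.07) between the gates. Without those 5, the count of lower genes in FSClow against EpCAM was 7, that in FSChi against EpCAM was 3, and between the gates 2 genes were higher, 0 lower and 2 in all. The counts over all genes in that setting are given above. With RSEM expected counts, which include the nearly empty file of FSChi 3, FSChi against EpCAM gave 3 higher, 3 lower and 6 in all, and between the gates 2 were lower and 6 in all. DESeq2 gave 9 lower in FSChi against EpCAM, and testing genes with no filter gave 3 lower between the gates. A fit of only the 2 gates gave 2 higher, 5 lower and 7 in all. Over all genes, expected counts gave 1166 higher and 1378 lower in FSChi against EpCAM and 1664 and 809 between the gates, of 13020. For those comparisons DESeq2 gave 2146 lower of 13334 and no filter 947 lower of 24209. The fit of only the 2 gates gave 1179 higher and 927 lower of 11556. From TPM, the share of Cldn7 among claudins in FSChi was 41.3%, where the nearly empty file listed Cldn14 at such a share that its FSChi mean was 20.0%. With 1 library left out, the counts in FSClow against EpCAM ran from 11 to 12 higher, 9 to 14 lower and 20 to 26 in all, those in FSChi against EpCAM from 6 to 8, 3 to 6 and 10 to 13, and those between the gates from 4 to 5, 1 to 9 and 5 to 13.

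The labels do not say whether a replicate number marks a shared animal or day. Deviations of same-numbered libraries correlated from -0.192 to 0.17, from -0.049 to 0.254 and from -0.099 to 0.404 in the 3 comparisons. Differently numbered libraries were not correlated for reference, so these values cannot show whether the samples were paired. With the replicate number as a block, 1 gene was lower between the gates and 4 were called in all, and the calls against EpCAM of Jup (adjusted p = 0.145), Dsg3 (adjusted p = 0.133) and Cldn22 (adjusted p = 0.0659) in FSClow and of Cldn22 (adjusted p = 0.102) and Ctnnb1 (adjusted p = 0.054) in FSChi ended, as did that of Cldn4 between the gates (adjusted p = 0.05). Over all genes, the block gave 1398 higher and 584 lower between the gates, of 13340. In FSClow the block moved Jam2 from -2.63 to -5.00 and Dsc3 from -6.78 to -9.05. Relative log expression scaling moved the median change of all genes from 0.05 to -0.14 in FSClow against EpCAM (2244 higher and 3627 lower, where TMM gave 2931 and 3086), from -0.02 to -0.14 in FSChi against EpCAM (1481 and 1978, where TMM gave 1797 and 1624) and from -0.01 to 0.06 between the gates (2243 and 1025, where TMM gave 2069 and 1241). With it, 11 junction genes were higher and 14 lower in FSClow. At this depth 27 junction genes were under the filter and untested, and FSChi 2 was the shallowest library, with 1348428 counts.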
